A study of Homo sapiens with 12 samples.

Results

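The 180 genes described here are the expressed long intergenic non-coding RNAs (lincRNAs) of SEM, an established leukaemia cell line of B precursor origin with a KMT2A-AFF1 fusion. They were chosen by their measured level, as the genes of the deposited table with the biotype lincRNA that lay outside chromosomes 8, 13, X and Y and reached at least 2 FPKM (fragments scaled to exon length and library size) in at least 3 of 12 libraries, leaving out the small nucleolar RNA host genes named SNHG, GAS5 and ZFAS1. The table held 7629 lincRNAs. Of these, 206 reached that level, 20 of them on the chromosomes left out and 6 of them host genes on other chromosomes. The 12 libraries formed 4 groups of 3: IKZF1 knockout (KO) cells with 1 µM cytarabine (AraC) for 16 h (KO AraC), KO cells without it (KO untreated), wild-type (WT) cells with AraC (WT AraC) and WT cells without it (WT untreated). All 4 groups were SEM cells, so the controls carry the fusion too. IKZF1 is the gene of Ikaros, a DNA-binding protein needed for the lymphoid lineage, and AraC is a cytidine analogue that is built into DNA and stalls replication. The labels do not say how the knockout was made or whether it is 1 clone, so effects of the knockout and of the clone cannot be told apart.

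LincRNAs are transcripts without a known protein product that lie between coding genes. Many are spliced and polyadenylated like messenger RNAs, are present at low levels and differ sharply between cell types. Some act as RNA in the nucleus or cytoplasm, some are the precursors of miRNAs, and many start at or near the promoter of a coding gene and have no assigned role.

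Between 16342979 and 22733932 reads were assigned to genes per library, with WT AraC replicate 1 the deepest. The correlation between replicates was 0.979 to 0.984, and no pair was alike within sampling noise. The B precursor label held: 7 of 10 markers reached 1 FPKM in all 3 libraries of KO AraC, KO untreated and WT AraC and 8 of 10 in WT untreated, whereas the 4 T cell markers were at or near 0. The summed FPKM of 5 myeloid markers was 1.89 to 3.04 in KO AraC, 0.261 to 0.809 in KO untreated, 4.15 to 5.09 in WT AraC and 0.919 to 1.95 in WT untreated libraries. For 4 markers of other tissues (COL1A1, COL1A2, EPCAM and KRT18) the sum was 2.08 to 2.31 in KO AraC and 0.959 to 1.34 in KO untreated libraries. In WT AraC libraries that sum was 0.770 to 0.947 and in WT untreated libraries 0.318 to 0.427. The part of such cells or genes in the results was not tested. IKZF1 itself had 14.2 to 15.0 FPKM in KO AraC, 20.5 to 21.5 in KO untreated, 14.2 to 15.3 in WT AraC and 22.1 to 22.6 in WT untreated libraries, so the total level of its RNA does not check the genotype labels. The labels number the replicates without saying that they came from separate cultures, so the p-values reflect a spread between libraries that may be only technical. Lower levels of an RNA in a bulk sample and fewer cells that make it cannot be told apart.

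The lincRNAs were low and uneven in level. Their mean FPKM over the 12 libraries ran from 1.04 to 61.0 with a median of 2.90, against a median of 8.36 for the 10434 protein-coding genes tested. Only 13 averaged at least 10 FPKM, 30 averaged 5 to 10, 97 averaged 2 to 5, and 40 averaged under 2. Their exons were short, with a median merged length of 1064 bases against 5111.5 for the coding genes, so a lincRNA rested on a median of 61.75 reads per library and a coding gene on 729. In 35 of the lincRNAs the median was under 20 reads. Together they made up 0.281% to 0.321% of all FPKM in KO AraC, 0.282% to 0.296% in KO untreated, 0.291% to 0.309% in WT AraC and 0.274% to 0.282% in WT untreated libraries. KO AraC replicate 3 was the lowest of its group, at 0.281% beside 0.319% and 0.321%.

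The level used by the rule was reached in all 12 libraries by 79 lincRNAs and in 3 to 11 by the other 101. None reached it in the libraries of 1 group only. There were 8 that reached it in KO libraries only, 7 in WT libraries only, 5 in AraC-treated and 5 in untreated libraries only, so the rule itself favoured a difference for these, and those whose differences are given below are marked as such. Just inside the threshold, the third highest of the 12 values was 2.01 FPKM for AC104073.4, 2.01 for AP001362.2 and 2.02 for AC020928.1. Just outside it, the value was 1.99 for LINC00526, 1.99 for AC005332.3 and 1.98 for AC104113.1.

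**Figure D1:**
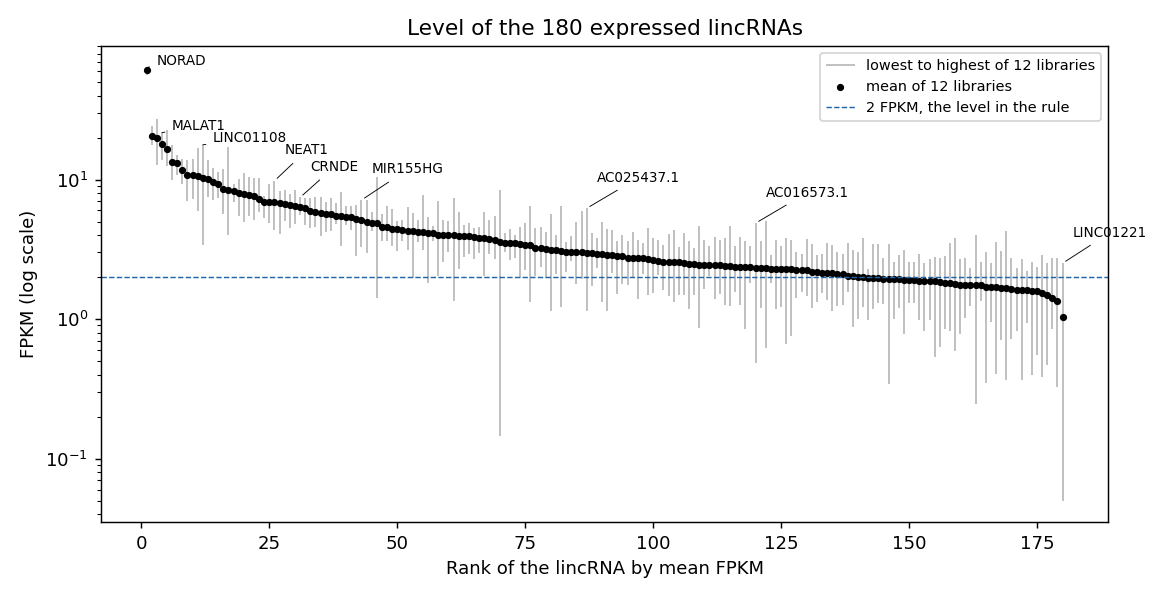
FPKM on a log scale of the 180 lincRNAs, ranked by their mean over the 12 libraries; points are means and grey lines run from the lowest to the highest library, with values under 0.05 drawn at 0.05. NORAD stands at 61.0 FPKM, the level falls to about 2 FPKM near rank 140, and low members such as LINC01221 vary far more between libraries than NORAD.

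The lincRNAs lay on 20 chromosomes, with the most on chromosome 5 (16) and chromosome 17 (15). Most carry only a clone name (118), 27 have LINC symbols, 12 are named as antisense, 5 as divergent transcripts and 3 as miRNA hosts. A single exon block made up 67 of them. For 76 the nearest protein-coding start site was within 5 kb: 46 of these pairs were divergent, 19 lay on opposite strands with overlapping starts and 11 on the same strand. Exon bases were shared with another gene in 69, including at least 50% of the exon bases in 14 and all in 6. Since no label says whether the libraries were stranded, reads of these lincRNAs and of the overlapping genes cannot be told apart, and the sharing is stated for those described below.

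Among the 9 nuclear and cytoplasmic scaffold lincRNAs listed, NORAD, MALAT1 and NEAT1 were expressed. NORAD, an abundant RNA that binds Pumilio proteins and was named for its induction by DNA damage, was the highest of all 180 (chr20:36045622-36050960, minus strand; this and the other gene positions are those of the table, on GRCh38). It had 59.9, 60.6 and 61.2 FPKM in KO AraC, 56.2, 61.9 and 63.4 in KO untreated, 62.4, 61.02 and 61.6 in WT AraC and 61.3, 62.2 and 59.97 in WT untreated libraries. The 4 groups overlapped. The log2 difference of FPKM + 0.5, the scale of all differences below, was 0.00 (SE 0.04, adjusted p = 0.95) for AraC in KO cells and 0.01 (SE 0.04, adjusted p = 0.83) in WT cells by limma, with 95% intervals of -0.09 to 0.10 and -0.08 to 0.10. KO against WT gave -0.03 (SE 0.04, adjusted p = 0.68) with AraC and -0.02 (SE 0.04, adjusted p = 0.8) without. The intervals cover the spread between libraries under the authors' scaling and not the choice of scaling. Scaling to TPM moved the median AraC difference of all genes to 0.09 in KO and 0.16 in WT cells.

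The letters by which Pumilio proteins recognise RNA, TGTANATA read in DNA letters, occurred 15 times in the 5339-base transcript of NORAD and 16 times in the 5696-base longest transcript of HCG11, while the next lincRNA, NEAT1, held 6 in 22743 bases. Of the longest transcripts of the 180 lincRNAs, 10% held at least 1 match on their own strand, the only strand searched. A match is a description and not a site. The stretch of NORAD that holds the most matches within 120 bases, transcript bases 1129 to 1248 of chromosome 20 in GENCODE 29, is shown with the matches in capitals.
NORAD: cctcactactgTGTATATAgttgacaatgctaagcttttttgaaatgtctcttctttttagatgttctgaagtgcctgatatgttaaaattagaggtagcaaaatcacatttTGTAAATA

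Of 7 listed partners of NORAD, 2 were higher and 4 lower with AraC in KO cells (median log2 difference -0.27), and 0 were higher and 4 lower in WT cells (median -0.21), beside medians of -0.03 and -0.01 over the 13300 genes tested. Of all genes tested, 19.8% were called higher and 24.7% lower in KO cells, and 24.1% higher and 25.6% lower in WT cells. PUM2 differed by -0.36 (adjusted p = 9.9e-05) in KO cells and by -0.40 (adjusted p = 3.5e-05) in WT cells, and RBMX, an RNA-binding partner of NORAD in the nucleus, by -0.29 (adjusted p = 7.1e-06) and -0.39 (adjusted p = 8.8e-07). With values scaled to TPM the counts became 3 higher and 3 lower in KO cells and 2 and 2 in WT cells.

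NEAT1, the RNA core of the nuclear bodies called paraspeckles, lies on chromosome 11 next to MALAT1, an RNA of nuclear speckles whose start is 74914 bases further on. NEAT1 had 7.09, 7.56 and 4.55 FPKM in KO AraC, 9.78, 7.34 and 7.61 in KO untreated, 5.08, 5.24 and 4.32 in WT AraC and 6.69, 8.49 and 8.81 in WT untreated libraries. The WT AraC libraries lay below all WT untreated libraries, whereas in KO cells the groups overlapped. The differences with AraC were -0.36 (SE 0.17, adjusted p = 0.12) in KO cells and -0.65 (SE 0.17, adjusted p = 0.0089) in WT cells, and the second missed the threshold when values were scaled to TPM, at -0.48 (adjusted p = 0.058). The difference between the 2 genotypes in that effect was not called, at 0.29 (SE 0.25, adjusted p = 0.57). MALAT1 had 21.2, 21.7 and 15.02 FPKM in KO AraC, 19.3, 16.1 and 16.9 in KO untreated, 17.9, 18.1 and 13.7 in WT AraC and 17.7, 19.5 and 18.6 in WT untreated libraries. All groups overlapped, and no comparison was called for MALAT1, with 0.13 (SE 0.14, adjusted p = 0.49) for AraC in KO cells and -0.17 (SE 0.14, adjusted p = 0.33) in WT cells. In both RNAs KO AraC replicate 3 was the lowest KO library, which among the KO libraries was also the one with the lowest summed share of the lincRNAs.

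Over the 12 libraries the lincRNAs whose log2(FPKM + 0.5) ran most like that of NEAT1 were LINC01089 (Pearson r = 0.92), LINC02363 (r = 0.85) and LINC00528 (r = 0.83). For MALAT1 they were AP001029.1 (r = 0.75), AC009283.1 (r = 0.67) and NEAT1 itself (r = 0.65). These correlations describe 12 libraries that share the authors' scaling. Genes of the proteins of paraspeckles and speckles were mostly lower with AraC: of 22 tested, 1 was higher and 19 lower in KO cells (median -0.31) and 1 was higher and 18 lower in WT cells (median -0.44), where 19.8% and 24.7% of all genes tested were called higher and lower in KO cells and 24.1% and 25.6% in WT cells. SRSF2, a splicing factor of speckles, differed by -0.55 (adjusted p = 5.3e-07) in KO cells and by -0.71 (adjusted p = 8.4e-08) in WT cells. SFPQ, a core paraspeckle protein, differed by -0.54 in both (adjusted p = 4.9e-07 in KO and 4.4e-07 in WT cells). With TPM scaling 15 of 22 in KO cells and 14 of 22 in WT cells were lower.

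Genes of nuclear RNA decay, which removes many unstable non-coding transcripts, gave 2 higher and 13 lower of 27 tested with AraC in KO cells (median -0.12) and 3 higher and 17 lower in WT cells (median -0.19). Of all genes tested, 19.8% and 24.7% were called higher and lower with AraC in KO cells and 24.1% and 25.6% in WT cells. NCBP2, a subunit of the nuclear cap-binding complex, differed by -0.58 (adjusted p = 3.4e-06) in KO cells and -0.50 (adjusted p = 6.7e-06) in WT cells, and EXOSC5, a subunit of the RNA exosome, by -0.56 (adjusted p = 1.9e-05) and -0.55 (adjusted p = 1.7e-05). This split depended on scaling, since TPM gave 3 higher and 6 lower in KO cells and 8 higher and 6 lower in WT cells. In KO against WT untreated cells 3 of the 27 were higher and 2 lower, beside 14.9% and 12.6% of all genes. With AraC 4 were higher and 3 lower, beside 15.4% and 14.8% of all genes.

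3 of the lincRNAs hold mature miRNAs on their own strand, and they are the 3 named as miRNA hosts. MIR155HG (chr21:25561909-25575168, plus strand) is the source of miR-155, an miRNA of activated B cells and of several leukaemias. MIR3142HG (chr5:160438594-160487426, plus strand) holds miR-146a, a brake on innate immune signalling, as well as miR-3142, and MIR4458HG (chr5:8450743-8463095, plus strand) holds miR-4458. The mature sequences, from RefSeq on GRCh38.p14, are given because the host RNA is what the libraries measured and these are its products. Capitals mark the seed, bases 2 to 8, by which a miRNA pairs with its targets. No 2 of the 6 share a seed.
hsa-miR-155-5p: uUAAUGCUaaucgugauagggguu
hsa-miR-155-3p: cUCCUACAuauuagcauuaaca
hsa-miR-146a-5p: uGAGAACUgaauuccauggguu
hsa-miR-146a-3p: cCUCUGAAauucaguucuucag
hsa-miR-3142: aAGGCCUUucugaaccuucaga
hsa-miR-4458: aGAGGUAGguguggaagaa

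The hosts of miR-146a and miR-4458 were lower with AraC in both genotypes. MIR3142HG had 2.46, 2.55 and 1.57 FPKM in KO AraC, 3.89, 3.22 and 2.95 in KO untreated, 1.76, 1.400 and 1.65 in WT AraC and 3.17, 2.29 and 2.36 in WT untreated libraries. The AraC libraries lay below the untreated libraries within each genotype, with differences of -0.53 (SE 0.16, adjusted p = 0.021) in KO and -0.56 (SE 0.16, adjusted p = 0.015) in WT cells. MIR4458HG, which reached 2 FPKM in untreated libraries only, had 1.92, 1.396 and 1.71 FPKM in KO AraC, 2.26, 2.74 and 2.38 in KO untreated, 1.29, 1.56 and 1.75 in WT AraC and 1.77, 2.25 and 2.31 in WT untreated libraries. Its differences were -0.45 (SE 0.13, adjusted p = 0.015) in KO and -0.36 (SE 0.13, adjusted p = 0.037) in WT cells, and its groups did not overlap in either. These 4 calls were lost with a single library left out: without KO AraC replicate 3 the MIR3142HG difference in KO cells was -0.35 (adjusted p = 0.068) and without WT untreated replicate 1 that in WT cells was -0.43 (adjusted p = 0.062), while MIR4458HG came to -0.35 (adjusted p = 0.06) in KO cells without KO AraC replicate 2 and to -0.27 (adjusted p = 0.14) in WT cells without WT AraC replicate 1. Leaving out KO untreated replicate 1 or WT AraC replicate 2 also ended the calls of MIR3142HG, and leaving out KO untreated replicate 2, WT untreated replicate 2 or 3 or WT AraC replicate 2 those of MIR4458HG.

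MIR155HG had 6.06, 4.48 and 3.91 FPKM in KO AraC, 5.46, 5.72 and 5.93 in KO untreated, 4.72, 4.795 and 3.26 in WT AraC and 7.13, 5.93 and 4.23 in WT untreated libraries. Its groups overlapped, and it was called in no comparison, with -0.24 (SE 0.19, adjusted p = 0.34) for AraC in KO and -0.39 (SE 0.19, adjusted p = 0.12) in WT cells. Mature miRNAs were not measured in these libraries. Among the 16 genes of miRNA processing tested, 1 was higher and 6 lower with AraC in KO cells (median -0.09), and 3 were higher and 6 lower in WT cells (median -0.09), beside 19.8% higher and 24.7% lower of all genes in KO and 24.1% and 25.6% in WT cells. XPO5, the exporter of precursor miRNAs, differed by -0.48 (adjusted p = 9.7e-06) in KO and -0.44 (adjusted p = 1.4e-05) in WT cells, and RAN, the small GTPase that works with it, by -0.44 (adjusted p = 2.6e-05) and -0.57 (adjusted p = 3.2e-06). With TPM scaling the counts turned to 4 higher and 2 lower in KO and 5 higher and 2 lower in WT cells.

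The first question was which lincRNAs differed after 16 h of AraC. In KO cells 24 of the 180 were higher and 26 lower (limma on log2(FPKM + 0.5), Benjamini-Hochberg adjusted p under 0.05 over all 13300 genes tested), where 19.8% and 24.7% of all genes tested were called. In WT cells 24 were higher and 37 lower, beside 24.1% and 25.6% of all genes. As shares of the 180, these were 13.3% and 14.4% in KO cells and 13.3% and 20.6% in WT cells. The median log2 difference of the lincRNAs was -0.03 in KO and -0.04 in WT cells, and that of all genes -0.03 and -0.01. Differences of at least 2-fold were called for 4 higher and 0 lower lincRNAs in KO cells, beside 1.25% and 0.526% of all genes. In WT cells they were called for 5 higher and 2 lower, beside 1.5% and 0.639%. Among those higher, AC016573.1 and AC007114.1 (both genotypes), AC106782.2 (KO) and ERVH48-1 (WT) reached 2 FPKM in AraC-treated libraries only. The rule favoured these. Among those called lower at any fold, MIR4458HG and AC016773.1 (both genotypes) reached 2 FPKM in untreated libraries only, so the rule favoured them too. Neither the counts higher nor the counts lower can be read against the shares of all genes.

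The share of calls was higher at greater depth in the lincRNAs and in all genes. With AraC in KO cells, 17.7% of 79 lincRNAs with under 50 reads a library were called, 30% of 70 with 50 to 200 reads and 48.4% of 31 with over 200, where all genes gave 13.7%, 36.6% and 52.9%. In WT cells the lincRNAs gave 22.8%, 34.3% and 61.3% and all genes 17.6%, 42.2% and 58.4%. The split between higher and lower depended on scaling. Scaling to TPM, which moved the median of all genes to 0.09 in KO and 0.16 in WT cells, gave 36 higher and 13 lower in KO cells and 38 and 16 in WT cells, and quantile normalization gave 18 and 30 in KO cells. Called in both genotypes were 11 higher and 19 lower lincRNAs, and none was called in opposite directions.

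**Figure D2:**
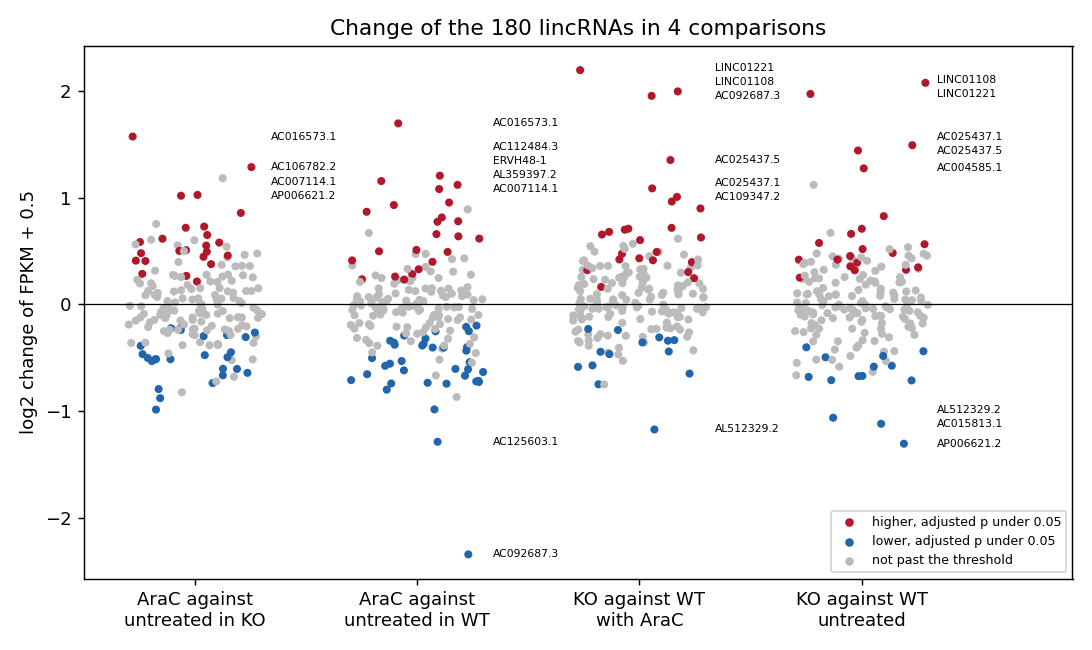
Log2 differences of FPKM + 0.5 of the 180 lincRNAs in 4 comparisons, 1 point per lincRNA, red and blue where higher or lower with an adjusted p under 0.05 and named at 2-fold or more. The AraC comparisons hold AC016573.1 at the top, at 1.58 in KO and 1.70 in WT cells, and the KO comparisons hold LINC01221 and LINC01108 at about 2.

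AC016573.1, a lincRNA of 539 exon bases in 4 blocks (chr5:173414035-173451165, plus strand), was the most increased with AraC in both genotypes. It had 3.62, 4.86 and 3.13 FPKM in KO AraC, 0.939, 0.482 and 1.64 in KO untreated, 3.502, 2.62 and 4.84 in WT AraC and 0.717, 0.822 and 0.7101 in WT untreated libraries. Every AraC library lay above every untreated library. The differences were 1.58 (SE 0.27, adjusted p = 0.00067) in KO and 1.70 (SE 0.27, adjusted p = 0.00033) in WT cells. It reached 2 FPKM in AraC-treated libraries only and rested on 34, 45 and 28 reads in KO AraC, 8, 4 and 14 in KO untreated, 46, 25 and 46 in WT AraC and 6, 7 and 6 in WT untreated libraries. The first 300 bases of its longest transcript in GENCODE 29 are shown, since no role is assigned to it and the sequence is its identity.
AC016573.1: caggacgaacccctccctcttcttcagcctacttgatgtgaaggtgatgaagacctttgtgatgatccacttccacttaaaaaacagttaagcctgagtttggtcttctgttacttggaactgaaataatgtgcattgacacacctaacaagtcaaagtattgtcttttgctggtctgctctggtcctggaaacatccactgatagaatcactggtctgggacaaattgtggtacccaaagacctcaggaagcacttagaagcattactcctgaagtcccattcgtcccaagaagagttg

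ERVH48-1, derived from an endogenous retrovirus and the source of the protein suppressyn in the human placenta, was also higher with AraC. It had 2.26, 1.48 and 1.84 FPKM in KO AraC, 0.824, 0.914 and 0.646 in KO untreated, 2.51, 2.46 and 2.395 in WT AraC and 1.25, 0.468 and 0.875 in WT untreated libraries. The AraC libraries lay above the untreated ones in both genotypes, with 0.86 (SE 0.20, adjusted p = 0.0043) in KO and 1.16 (SE 0.20, adjusted p = 0.00054) in WT cells. It reached 2 FPKM in AraC-treated libraries only, so the rule favoured this direction. In WT cells AC112484.3, at 1.21 (SE 0.35, adjusted p = 0.013), and AL359397.2, at 1.12 (SE 0.22, adjusted p = 0.0015), were among the 5 most increased, against 0.61 (SE 0.35, adjusted p = 0.18) and 0.55 (SE 0.22, adjusted p = 0.063) in KO cells. Neither of their interaction terms was called, at -0.60 (SE 0.49, adjusted p = 0.56) and -0.57 (SE 0.31, adjusted p = 0.37). The AC112484.3 call was lost without WT AraC replicate 1, at 1.01 (adjusted p = 0.054), and all exon bases of AL359397.2 are shared with ATP5S.

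A pair of AraC-increased lincRNAs start head to head with a coding gene. AC007114.1 begins 68 bases from the start of AKAP1, which anchors protein kinase A at mitochondria, and AC106782.2 begins 80 bases from that of CD2BP2, a protein of the U5 spliceosome. Their shared promoter windows, 250 bases before to 50 after the start of the coding gene (RefSeq, GRCh38.p14, given on the strand of the coding gene), are shown because each window holds the starts of both transcripts. They are chr17:57084996-57085295 on the plus strand and chr16:30355259-30355558 on the minus strand. Capitals run from the start of the lincRNA in the table to the base before the RefSeq start of the coding gene, which is 222 bases for AKAP1 and 133 for CD2BP2, more than in the table because RefSeq places these starts elsewhere.
AKAP1 and AC007114.1: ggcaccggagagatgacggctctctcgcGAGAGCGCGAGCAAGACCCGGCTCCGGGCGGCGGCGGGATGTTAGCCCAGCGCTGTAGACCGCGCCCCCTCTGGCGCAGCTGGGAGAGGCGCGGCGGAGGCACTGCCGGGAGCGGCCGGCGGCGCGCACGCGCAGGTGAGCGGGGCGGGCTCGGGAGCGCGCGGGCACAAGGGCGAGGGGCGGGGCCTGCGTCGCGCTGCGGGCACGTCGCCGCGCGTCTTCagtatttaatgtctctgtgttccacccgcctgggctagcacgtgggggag
CD2BP2 and AC106782.2: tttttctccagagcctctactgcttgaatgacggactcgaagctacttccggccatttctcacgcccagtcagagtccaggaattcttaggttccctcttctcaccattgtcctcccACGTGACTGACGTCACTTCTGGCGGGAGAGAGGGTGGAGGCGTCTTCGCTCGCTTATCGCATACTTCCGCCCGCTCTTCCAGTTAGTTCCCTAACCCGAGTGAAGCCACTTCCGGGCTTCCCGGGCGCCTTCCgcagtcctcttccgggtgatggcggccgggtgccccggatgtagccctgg

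AC007114.1 had 2.82, 3.13 and 3.803 FPKM in KO AraC, 1.04, 1.98 and 1.11 in KO untreated, 3.41, 3.56 and 2.59 in WT AraC and 1.43, 0.666 and 1.79 in WT untreated libraries. The AraC libraries lay above the untreated ones, with 1.03 (SE 0.25, adjusted p = 0.0061) in KO and 1.08 (SE 0.25, adjusted p = 0.0039) in WT cells, while AKAP1 differed the other way, by -0.42 (SE 0.04, adjusted p = 1.3e-05) and -0.58 (SE 0.04, adjusted p = 1.2e-06). AC106782.2 had 2.25, 2.47 and 1.58 FPKM in KO AraC, 0.5102, 0.327 and 0.893 in KO untreated, 1.200, 1.88 and 2.75 in WT AraC and 0.714, 0.957 and 0.514 in WT untreated libraries. It too had no overlap between AraC and untreated libraries, with 1.29 (SE 0.26, adjusted p = 0.0021) in KO and 0.96 (SE 0.26, adjusted p = 0.01) in WT cells, and CD2BP2 was not called, at -0.00 (SE 0.04, adjusted p = 0.95) and -0.02 (SE 0.04, adjusted p = 0.75). Both lincRNAs reached 2 FPKM in AraC-treated libraries only. AP006621.2, a short lincRNA classed as divergent to GATD1 by the 5 kb limit, was higher with AraC in KO cells, at 1.02 (SE 0.26, adjusted p = 0.0075), against -0.25 (SE 0.26, adjusted p = 0.46) in WT cells. Its interaction missed the threshold, at 1.27 (SE 0.36, adjusted p = 0.097). Another lincRNA on the same strand, AP006621.3, starts 4067 bases away and only 91 bases from the RefSeq start of GATD1. AP006621.3 was not called with AraC in either genotype. AP006621.2 rested on 28, 19 and 16 reads in KO AraC and 6, 8 and 11 in KO untreated libraries. In WT AraC libraries it had 27, 28 and 19 reads and in WT untreated libraries 16, 33 and 24.

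**Figure D3:**
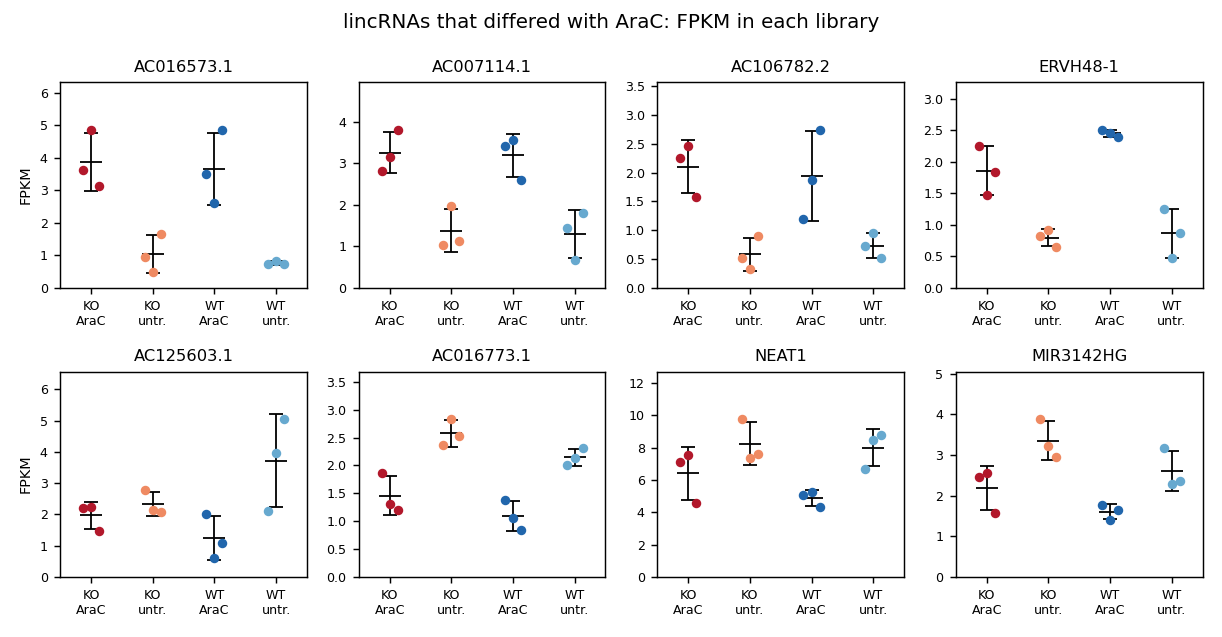
FPKM of 8 lincRNAs in each library (points), with the mean and SD of the 3 libraries of a group (bars), from KO AraC on the left to WT untreated on the right; each panel has its own axis from 0. AC016573.1, AC007114.1, AC106782.2 and ERVH48-1 stand higher in both AraC groups, AC016773.1 and MIR3142HG lower in both, and NEAT1 and AC125603.1 overlap between the KO groups.

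Among the lincRNAs that were lower with AraC, AP001505.1 (chr21:44978832-44979274, plus strand) was the most decreased in KO cells. It had 6.34, 5.92 and 8.02 FPKM in KO AraC, 16.7, 13.2 and 11.9 in KO untreated, 6.21, 8.91 and 9.09 in WT AraC and 14.7, 13.7 and 11.95 in WT untreated libraries. The groups did not overlap in either genotype, with -0.99 (SE 0.16, adjusted p = 0.00055) in KO and -0.72 (SE 0.16, adjusted p = 0.0036) in WT cells. It starts 1843 bases after the end of FAM207A on the same strand, which differed by -0.40 (SE 0.11, adjusted p = 0.014) and -0.10 (SE 0.11, adjusted p = 0.49). AC004585.1 had 8.43, 8.51 and 7.49 FPKM in KO AraC, 15.4, 13.8 and 17.1 in KO untreated, 4.25, 4.003 and 4.12 in WT AraC and 5.16, 6.34 and 6.76 in WT untreated libraries. Every AraC library lay below its untreated group, with -0.88 (SE 0.10, adjusted p = 3.3e-05) in KO and -0.50 (SE 0.10, adjusted p = 0.0013) in WT cells, and every KO library lay above the WT libraries of the same treatment.

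AC016773.1, divergent to SLBP, the binding protein of histone mRNAs, with 266 bases between the starts, had 1.86, 1.31 and 1.201 FPKM in KO AraC, 2.37, 2.83 and 2.52 in KO untreated, 1.38, 1.06 and 0.849 in WT AraC and 2.01, 2.13 and 2.31 in WT untreated libraries. It was lower in all AraC libraries, with -0.66 (SE 0.15, adjusted p = 0.0034) in KO and -0.74 (SE 0.15, adjusted p = 0.0015) in WT cells, while SLBP gave 0.18 (SE 0.04, adjusted p = 0.0019) and 0.07 (SE 0.04, adjusted p = 0.13). It reached 2 FPKM in untreated libraries only. LINC01337 was called in KO cells at -0.79 (SE 0.29, adjusted p = 0.043) from a median of 11.5 reads a library, with 0.08 (SE 0.29, adjusted p = 0.85) in WT cells. That call was lost without any 1 of KO AraC replicates 2 and 3, KO untreated replicates 1 and 3, WT AraC replicate 1 and WT untreated replicates 1 and 3, and came to -0.49 (adjusted p = 0.16) without KO AraC replicate 2. AC012615.1, which begins 641 bases after the end of ABHD17A, gave -0.64 (SE 0.19, adjusted p = 0.02) and -0.67 (SE 0.19, adjusted p = 0.014), and in KO cells -0.52 (adjusted p = 0.078) without KO untreated replicate 2, with the call also lost without KO AraC replicate 2 or 3.

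In WT cells the most decreased lincRNA was AC092687.3, of 393 exon bases. It had 2.92, 3.26 and 3.06 FPKM in KO AraC, 4.02, 8.43 and 5.79 in KO untreated, 1.04, 0.287 and 0.144 in WT AraC and 4.43, 2.42 and 6.66 in WT untreated libraries. It rested on 20, 22 and 20 reads in KO AraC, 25, 51 and 36 in KO untreated, 10, 2 and 1 in WT AraC and 27, 15 and 41 in WT untreated libraries. The WT AraC libraries stood below all other 9. The difference with AraC was -0.82 (SE 0.37, adjusted p = 0.095) in KO and -2.35 (SE 0.37, adjusted p = 0.00033) in WT cells, with an interaction of 1.52 (SE 0.52, adjusted p = 0.16). AC125603.1 had 2.19, 2.23 and 1.48 FPKM in KO AraC, 2.77, 2.13 and 2.07 in KO untreated, 2.02, 0.617 and 1.09 in WT AraC and 2.11, 3.98 and 5.05 in WT untreated libraries. Its WT AraC libraries lay below the WT untreated ones and its KO groups overlapped, with -0.20 (SE 0.31, adjusted p = 0.64) in KO and -1.29 (SE 0.31, adjusted p = 0.0051) in WT cells and an interaction of 1.09 (SE 0.44, adjusted p = 0.22). AC125603.1 rested on 14, 14 and 9 reads in KO AraC and 16, 12 and 12 in KO untreated libraries. In WT AraC libraries it had 18, 4 and 7 reads and in WT untreated libraries 12, 23 and 29. A neighbour on the same strand, AC125603.2, whose start is 36754 bases away, differed by -0.38 in KO cells, not called, and by -0.73 in WT cells, called lower.

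LINC01089 starts 274 bases from SETD1B, a histone H3K4 methyltransferase, on the opposite strand, and shares 51.3% of its exon bases with other genes including RHOF. It had 2.03, 2.16 and 1.44 FPKM in KO AraC, 3.66, 2.31 and 2.77 in KO untreated, 1.599, 1.26 and 1.44 in WT AraC and 2.65, 3.57 and 3.83 in WT untreated libraries. The AraC libraries lay below the untreated ones, with -0.52 (SE 0.17, adjusted p = 0.03) in KO and -0.98 (SE 0.17, adjusted p = 0.00065) in WT cells, and SETD1B differed by -0.21 (SE 0.08, adjusted p = 0.046) and -0.32 (SE 0.08, adjusted p = 0.0053). The call in KO cells was lost without KO AraC replicate 3, at -0.38 (adjusted p = 0.11), and also without KO untreated replicate 1 or 3. AC026471.4 was lower in WT cells, at -0.80 (SE 0.22, adjusted p = 0.0095), with -0.23 (SE 0.22, adjusted p = 0.41) in KO cells, and its divergent neighbour ARMC5 was lower in both, at -0.49 (SE 0.07, adjusted p = 0.00026) in KO and -0.44 (SE 0.07, adjusted p = 0.00045) in WT cells.

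Of the highly expressed lincRNAs, EBLN3P, a relic of an ancient bornavirus-like gene, had 18.2, 18.3 and 17.7 FPKM in KO AraC, 21.1, 24.2 and 21.7 in KO untreated, 19.2, 17.97 and 18.9 in WT AraC and 22.1, 22.99 and 21.98 in WT untreated libraries. It was lower in every AraC library, with -0.30 (SE 0.05, adjusted p = 0.00056) in KO and -0.25 (SE 0.05, adjusted p = 0.0014) in WT cells, although the WT difference was -0.06 (adjusted p = 0.36) with TPM scaling. LINC02363 had 18.9, 20.5 and 16.3 FPKM in KO AraC, 27.1, 26.9 and 25.1 in KO untreated, 13.95, 14.4 and 12.7 in WT AraC and 20.6, 21.7 and 19.6 in WT untreated libraries. Its AraC libraries lay below the untreated libraries of the same genotype and its KO libraries above the WT libraries of the same treatment, with -0.50 (SE 0.08, adjusted p = 0.00034) for AraC in KO, -0.58 (SE 0.08, adjusted p = 0.00011) in WT, 0.42 (SE 0.08, adjusted p = 0.0019) for KO against WT with AraC and 0.35 (SE 0.08, adjusted p = 0.0061) without. AC084033.3 had 18.3, 17.4 and 16.6 FPKM in KO AraC, 17.6, 22.5 and 20.8 in KO untreated, 13.5, 12.6 and 13.3 in WT AraC and 16.3, 14.5 and 16.3 in WT untreated libraries. Its KO libraries lay above the WT libraries of the same treatment, at 0.40 (SE 0.08, adjusted p = 0.0033) with AraC and 0.36 (SE 0.08, adjusted p = 0.0063) without, and for AraC gave -0.21 (SE 0.08, adjusted p = 0.051) in KO and -0.25 (SE 0.08, adjusted p = 0.022) in WT cells, where the call was lost with TPM scaling, at -0.06 (adjusted p = 0.55), and without WT untreated replicate 1 or 3 or WT AraC replicate 2, the last at -0.22 (adjusted p = 0.076).

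The lincRNAs listed for growth and stress included 7 that were expressed, among them MALAT1, NEAT1 and LINC01089. With AraC 0 were higher and 3 lower in KO cells, and 1 was higher and 3 lower in WT cells, beside the 19.8% higher and 24.7% lower of all genes in KO and 24.1% and 25.6% in WT cells. TP53TG1, named as a target of p53, had 3.195, 4.16 and 3.77 FPKM in KO AraC, 3.71, 3.75 and 3.15 in KO untreated, 3.77, 3.86 and 3.66 in WT AraC and 3.02, 3.16 and 3.18 in WT untreated libraries, and its differences were 0.06 (SE 0.09, adjusted p = 0.63) in KO and 0.24 (SE 0.09, adjusted p = 0.04) in WT cells. The WT call was lost without any 1 of the WT libraries, at 0.22 (adjusted p = 0.11) without WT AraC replicate 2, and 32.6% of its exon bases are shared with annotated small RNAs. EPB41L4A-AS1 had 11.3, 10.9 and 11.5 FPKM in KO AraC, 14.9, 12.3 and 13.6 in KO untreated, 13.4, 14.9 and 13.8 in WT AraC and 13.3, 14.4 and 13.5 in WT untreated libraries. Its KO AraC libraries were the lowest of all, with -0.26 (SE 0.07, adjusted p = 0.0072) in KO and 0.03 (SE 0.07, adjusted p = 0.73) in WT cells, with -0.14 (adjusted p = 0.14) in KO cells with TPM scaling, and 49.6% of its exon bases are shared with EPB41L4A. In WT cells it was called higher under 2 of 24 alternatives, and its interaction was not called, at -0.29 (adjusted p = 0.12). LINC00665 differed by -0.22 (SE 0.06, adjusted p = 0.012) in KO and -0.20 (SE 0.06, adjusted p = 0.019) in WT cells, and by -0.10 (adjusted p = 0.23) and -0.02 (adjusted p = 0.79) with TPM scaling. Its calls were also lost without KO untreated replicate 3 in KO cells, at -0.17 (adjusted p = 0.05), just over the threshold before rounding, and in WT cells without WT AraC replicate 2 or WT untreated replicate 2 or 3, the first at -0.18 (adjusted p = 0.064). CRNDE, a lincRNA high in colorectal tumours, gave 0.13 (SE 0.06, adjusted p = 0.1) and -0.03 (SE 0.06, adjusted p = 0.72). In KO cells CRNDE was called higher under 3 of 24 alternatives, and its interaction was not called, at 0.15 (adjusted p = 0.35).

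The next question was how KO cells differed from WT cells. With AraC, 25 of the 180 lincRNAs were higher and 14 lower in KO cells, where 15.4% and 14.8% of all genes tested were called. Without AraC 21 were higher and 14 lower, beside 14.9% and 12.6% of all genes. The shares of lincRNAs called were 13.9% and 7.78% with AraC and 11.7% and 7.78% without. Their median log2 difference was 0.05 with AraC and 0.01 without, and that of all genes was 0.0034 with AraC and 0.01 without. At least 2-fold calls were 6 higher and 1 lower with AraC, beside 0.827% and 0.962% of all genes. Without AraC they were 5 higher and 3 lower, beside 0.962% and 1.21%. Of those higher, LINC01221 and AC025437.1 reached 2 FPKM in KO libraries only. Of those lower, AL512329.2 and, without AraC, AC015813.1 reached it in WT libraries only. The rule favoured these. At lower folds it also favoured AC005332.4, called higher, and ZNF236-DT and, without AraC, LYRM4-AS1, called lower. The counts therefore cannot be read against the shares of all genes, at 2-fold or at any fold. At any fold, 12 were called higher and 7 lower in both KO comparisons, and none was called in opposite directions. With TPM scaling the counts with AraC were 19 higher and 19 lower, and those without were 21 and 14, the same as before. Among the 140 lincRNAs with a mean of at least 2 FPKM, 21 were higher and 10 lower with AraC, and 19 higher and 8 lower without.

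LINC01108 (chr6:14280127-14285454, minus strand; 3697 exon bases in 3 blocks) had the smallest adjusted p of the lincRNAs between the genotypes. It had 16.9, 15.98 and 16.2 FPKM in KO AraC, 17.7, 16.7 and 17.2 in KO untreated, 3.74, 3.39 and 4.05 in WT AraC and 3.55, 3.75 and 3.76 in WT untreated libraries. The 6 KO libraries were all above the 6 WT libraries, and within each genotype the AraC and untreated libraries overlapped. Group means were 16.4 ± 0.473 in KO AraC and 3.73 ± 0.332 FPKM in WT AraC libraries (SD, n = 3 each), a log2 difference of 2.00 (SE 0.06, adjusted p = 2.5e-09) by limma. Without AraC they were 17.2 ± 0.5099 in KO and 3.69 ± 0.116 FPKM in WT libraries, a difference of 2.08 (SE 0.06, adjusted p = 1.7e-09). For AraC it gave -0.07 (SE 0.06, adjusted p = 0.35) in KO and 0.01 (SE 0.06, adjusted p = 0.9) in WT cells. The nearest coding start is that of CD83, a surface protein of activated B cells, 168198 bases away, and CD83 differed by 0.11 (SE 0.14, adjusted p = 0.61) with AraC and 0.43 (SE 0.14, adjusted p = 0.044) without. The promoter of LINC01108, with that of LINC01221, is printed because these are the 2 lincRNAs with the largest KO differences and RefSeq and the table place their starts at the same base. The windows are chr6:14285405-14285704 on the minus strand and chr1:199015883-199016182 on the plus strand (RefSeq, GRCh38.p14), and capitals mark the 50 transcribed bases.
LINC01108: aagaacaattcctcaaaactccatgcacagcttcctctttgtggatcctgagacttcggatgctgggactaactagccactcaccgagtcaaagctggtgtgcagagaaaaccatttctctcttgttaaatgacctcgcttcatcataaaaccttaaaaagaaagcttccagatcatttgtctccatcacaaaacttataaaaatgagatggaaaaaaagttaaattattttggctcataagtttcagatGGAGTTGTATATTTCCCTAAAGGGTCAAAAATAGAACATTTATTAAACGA
LINC01221: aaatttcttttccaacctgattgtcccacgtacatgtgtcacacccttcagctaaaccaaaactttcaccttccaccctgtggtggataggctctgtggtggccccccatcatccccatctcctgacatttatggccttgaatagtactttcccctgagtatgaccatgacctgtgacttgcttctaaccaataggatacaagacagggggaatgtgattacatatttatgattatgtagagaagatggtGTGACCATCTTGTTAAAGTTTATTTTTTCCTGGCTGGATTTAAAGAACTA

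TGGGAA, a core of sites that Ikaros binds, searched on both strands, was in neither window, nor were the other 4 motifs searched. Over the 27305 RefSeq promoters of this length, 24.3% held TGGGAA, 3.67% TGATGNAA (bound by ATF4 with C/EBP proteins), 7.76% TGANTCA (AP-1), 7.43% CACGTG (an E-box) and 4.44% CCGGAAGT (ETS factors). Of the 40 lincRNAs with a RefSeq promoter of the same symbol, 27 had a start within 50 bases of the table, and 2 of these 27 held TGGGAA. The absence of these letters from a window of 300 bases says nothing about binding elsewhere.

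LINC01221 (chr1:199016133-199076735, plus strand; 662 exon bases) was close to absent from WT cells. It had 2.51, 1.32 and 2.46 FPKM in KO AraC, 1.15, 2.06 and 2.48 in KO untreated, 0, 0.1704 and 0 in WT AraC and 0.195, 0 and 0.0964 in WT untreated libraries. That was 29, 15 and 27 reads in KO AraC, 12, 21 and 26 in KO untreated, 0, 2 and 0 in WT AraC and 2, 0 and 1 in WT untreated libraries. The groups did not overlap in either treatment, with 2.20 (SE 0.27, adjusted p = 0.00013) with AraC and 1.98 (SE 0.27, adjusted p = 0.00027) without. As a ratio of reads scaled to library size, KO over WT was 41.4 with AraC (95% exact interval of counting error 11.05 to 349, 71 against 2 reads) and 19.7 without (6.41 to 98.1, 59 against 3 reads). Reads without molecular identifiers are not independent molecules, so the intervals cover counting error only. It reached 2 FPKM in KO libraries only, so it had to differ in this direction. The nearest coding start, 377676 bases away, is that of PTPRC, which encodes CD45 and differed by -1.73 (SE 0.14, adjusted p = 7.9e-06) with AraC and -1.64 (SE 0.14, adjusted p = 9.5e-06) without.

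AC025437.5 and AC025437.1 start 99289 bases apart on opposite strands of chromosome 5 at 158173601 to 158176422 and 158275711 to 158278813, and both were higher in KO cells. AC025437.5 had 4.38, 6.12 and 7.48 FPKM in KO AraC, 9.27, 10.3 and 5.84 in KO untreated, 2.48, 1.44 and 2.17 in WT AraC and 2.87, 1.41 and 4.67 in WT untreated libraries, with 1.36 (SE 0.34, adjusted p = 0.011) with AraC and 1.44 (SE 0.34, adjusted p = 0.008) without. AC025437.5 rested on 24, 33 and 39 reads in KO AraC and 46, 50 and 29 in KO untreated libraries. In WT AraC libraries it had 19, 8 and 12 reads and in WT untreated libraries 14, 7 and 23. AC025437.1 had 1.99, 2.69 and 5.57 FPKM in KO AraC, 6.22, 5.07 and 5.49 in KO untreated, 1.19, 1.14 and 1.31 in WT AraC and 1.86, 1.46 and 1.66 in WT untreated libraries, with 1.09 (SE 0.25, adjusted p = 0.0066) and 1.49 (SE 0.25, adjusted p = 0.00095). In both, every KO library lay above the WT libraries of the same treatment. Each lies 317247 bases or more from the start of CLINT1, which was not called, at -0.12 (SE 0.04, adjusted p = 0.073) with AraC and 0.07 (SE 0.04, adjusted p = 0.28) without. With AraC against untreated AC025437.1 was lower in KO cells, at -0.74 (SE 0.25, adjusted p = 0.031), and gave -0.33 (SE 0.25, adjusted p = 0.29) in WT cells. AC025437.1 rested on 12, 16 and 32 reads in KO AraC, 34, 27 and 30 in KO untreated, 10, 7 and 8 in WT AraC and 10, 8 and 9 in WT untreated libraries, and reached 2 FPKM in KO libraries only. Its first 300 transcript bases in GENCODE 29 are given as its identity.
AC025437.1: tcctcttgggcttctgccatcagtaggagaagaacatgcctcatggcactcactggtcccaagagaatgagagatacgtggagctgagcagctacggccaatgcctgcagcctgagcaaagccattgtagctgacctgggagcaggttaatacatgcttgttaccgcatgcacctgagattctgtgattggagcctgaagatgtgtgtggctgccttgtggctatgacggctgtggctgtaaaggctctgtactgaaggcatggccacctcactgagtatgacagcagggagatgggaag

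**Figure D4:**
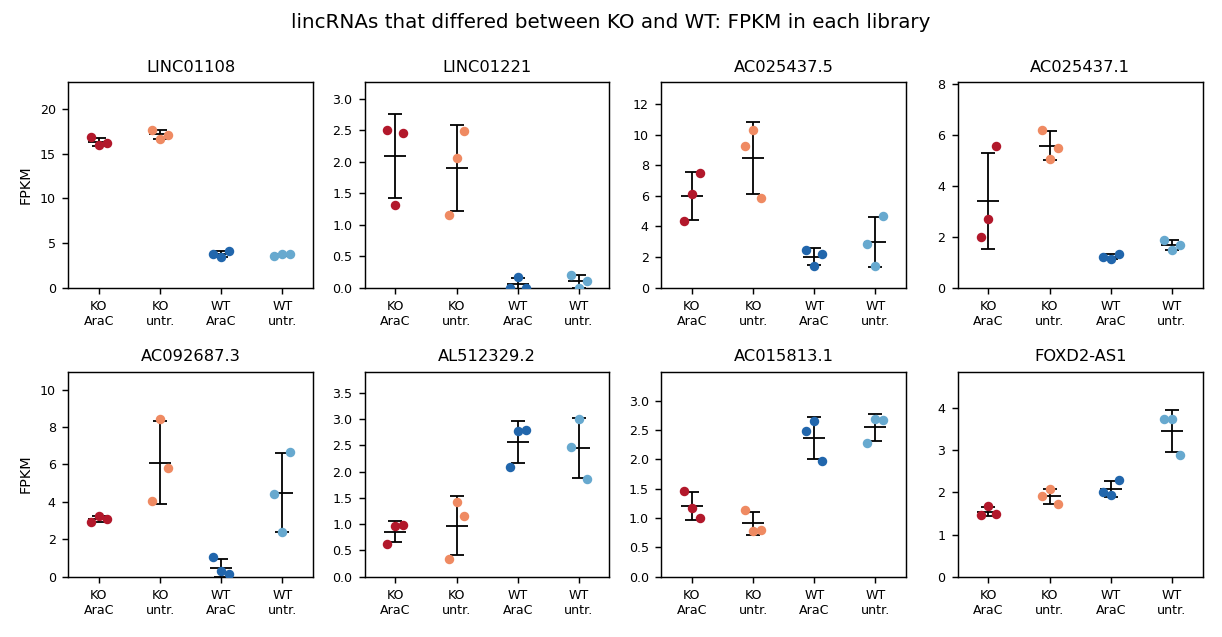
FPKM of 8 lincRNAs in each library (points), with the mean and SD of each group of 3 (bars), from KO AraC on the left to WT untreated on the right; each panel has its own axis from 0. LINC01108, LINC01221, AC025437.5 and AC025437.1 stand higher in KO than in WT libraries, AL512329.2 and AC015813.1 lower, while AC092687.3 and FOXD2-AS1 also differ between the WT groups.

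AC004585.1, described above as lower with AraC, was higher in KO cells by 0.90 (SE 0.10, adjusted p = 4.9e-05) with AraC and 1.28 (SE 0.10, adjusted p = 3.2e-06) without. AC092687.3 was higher by 1.96 (SE 0.37, adjusted p = 0.0022) with AraC, and by 0.44 (SE 0.37, adjusted p = 0.43) without, not called. CRNDE was higher by 0.25 (SE 0.06, adjusted p = 0.0077) with AraC but not called without, at 0.09 (SE 0.06, adjusted p = 0.27), and missed the threshold with TPM scaling, at 0.17 (adjusted p = 0.079). LINC01215, from the list of blood and B lineage lincRNAs, of which MIR155HG and MIR3142HG were the others expressed, was called higher without AraC, at 0.42 (SE 0.09, adjusted p = 0.0046), and gave -0.01 (SE 0.09, adjusted p = 0.95) with it. For AraC LINC01215 gave -0.03 (SE 0.09, adjusted p = 0.81) in KO and 0.40 (SE 0.09, adjusted p = 0.0033) in WT cells, with an interaction that was not called, at -0.43 (adjusted p = 0.1). EPB41L4A-AS1 was lower with AraC, at -0.31 (SE 0.07, adjusted p = 0.0046), and gave -0.01 (SE 0.07, adjusted p = 0.9) without.

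On the lower side, AL512329.2, a single-exon RNA 81061 bases from the start of FOXC1, had 0.628, 0.957 and 0.989 FPKM in KO AraC, 0.346, 1.42 and 1.15 in KO untreated, 2.097, 2.78 and 2.795 in WT AraC and 2.47, 3.003 and 1.86 in WT untreated libraries. All 6 KO libraries lay below the 6 WT libraries, with -1.17 (SE 0.27, adjusted p = 0.0074) with AraC and -1.06 (SE 0.27, adjusted p = 0.013) without, the second being -0.93 (adjusted p = 0.055) without WT untreated replicate 2. AL512329.2 rested on 6, 9 and 9 reads in KO AraC and 3, 12 and 10 in KO untreated libraries. In WT AraC libraries it had 28, 27 and 27 reads and in WT untreated libraries 21, 26 and 16. AC015813.1, of 5812 bases in 1 block, had 1.46, 1.17 and 0.995 FPKM in KO AraC, 1.14, 0.782 and 0.805 in KO untreated, 2.48, 2.66 and 1.97 in WT AraC and 2.28, 2.69 and 2.68 in WT untreated libraries. It too was separated, with -0.75 (SE 0.14, adjusted p = 0.0022) and -1.12 (SE 0.14, adjusted p = 0.00015). Both reached 2 FPKM in WT libraries only, as did ZNF236-DT, which starts 312 bases from ZNF236 and differed by -0.59 (SE 0.14, adjusted p = 0.0088) and -0.48 (SE 0.14, adjusted p = 0.025), and LYRM4-AS1, which gave -0.21 (SE 0.16, adjusted p = 0.38) and -0.68 (SE 0.16, adjusted p = 0.0088). ZNF236 itself was not called, at -0.03 (SE 0.08, adjusted p = 0.81) and 0.13 (SE 0.08, adjusted p = 0.27).

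FOXD2-AS1, divergent to the transcription factor gene FOXD2, had 1.46, 1.67 and 1.49 FPKM in KO AraC, 1.92, 2.07 and 1.71 in KO untreated, 2.01, 1.93 and 2.28 in WT AraC and 3.72, 3.73 and 2.87 in WT untreated libraries. WT untreated libraries were above all others, and KO cells differed from WT cells by -0.34 (SE 0.11, adjusted p = 0.033) with AraC and -0.71 (SE 0.11, adjusted p = 0.00045) without. AraC gave -0.23 (SE 0.11, adjusted p = 0.097) in KO and -0.61 (SE 0.11, adjusted p = 0.00062) in WT cells, with an interaction that was not called, at 0.38 (SE 0.15, adjusted p = 0.22). AC069503.1, which shares 56.2% of its exon bases with BCL7A, was lower in KO cells in both treatments, at -0.57 (SE 0.10, adjusted p = 0.00099) with AraC and -0.50 (SE 0.10, adjusted p = 0.0025) without, and BCL7A gave -0.08 (SE 0.04, adjusted p = 0.14) and -0.19 (SE 0.04, adjusted p = 0.0042). FLJ20021, opposite the start of PPP3CA, a calcineurin subunit, was lower with AraC at -0.65 (SE 0.15, adjusted p = 0.0067) and gave -0.01 (SE 0.15, adjusted p = 0.98) without. AP006621.2 was lower without AraC at -1.31 (SE 0.26, adjusted p = 0.0029) and gave -0.04 (SE 0.26, adjusted p = 0.92) with it. Its call here and its call for AraC in KO cells both rest on the low KO untreated libraries.

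The interaction, the AraC effect in KO cells minus that in WT cells, was called for 1 lincRNA with a positive and 1 with a negative difference, beside 0.887% and 1.8% of all genes tested. At an unadjusted p under 0.05 there were 25. AC138904.1, which starts 455 bases from the kinase gene SBK1 on the other strand, had 3.699, 4.18 and 3.79 FPKM in KO AraC, 3.03, 2.57 and 2.805 in KO untreated, 4.68, 4.59 and 4.76 in WT AraC and 4.52, 4.67 and 5.09 in WT untreated libraries. KO untreated libraries were the lowest and KO AraC libraries lay between them and the WT libraries. AraC changed it by 0.41 (SE 0.07, adjusted p = 0.00056) in KO and -0.02 (SE 0.07, adjusted p = 0.82) in WT cells, an interaction of 0.43 (SE 0.10, adjusted p = 0.041). SBK1 was higher with AraC in both genotypes, by 0.97 (SE 0.08, adjusted p = 3.9e-06) in KO and 0.49 (SE 0.08, adjusted p = 0.00036) in WT cells. Its interaction had the same sign as that of AC138904.1, at 0.48 (SE 0.11, adjusted p = 0.047). AC005332.6, which shares 48.4% of its exon bases with the pseudogene LRRC37A16P, had 9.74, 8.76 and 10.1 FPKM in KO AraC, 7.95, 7.98 and 7.52 in KO untreated, 9.45, 8.96 and 8.701 in WT AraC and 5.47, 6.002 and 5.68 in WT untreated libraries. WT untreated libraries were the lowest, and AraC gave 0.27 (SE 0.06, adjusted p = 0.003) in KO and 0.62 (SE 0.06, adjusted p = 7.9e-06) in WT cells, an interaction of -0.35 (SE 0.08, adjusted p = 0.049).

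Both interaction calls lay just under the threshold and were lost with a replicate block and without most single libraries. For example, AC138904.1 came to 0.39 (adjusted p = 0.097) without WT untreated replicate 3 and AC005332.6 to -0.29 (adjusted p = 0.079) without KO AraC replicate 2. The next lincRNAs by p were FLJ42351, at 0.53 (SE 0.13, adjusted p = 0.059), LINC00623, at -0.69 (SE 0.18, adjusted p = 0.079), AL390728.6, at 0.69 (SE 0.20, adjusted p = 0.094) and AC008915.2, at -0.84 (SE 0.24, adjusted p = 0.094), none of them called. FLJ42351, 167 bases from the phosphate transporter gene SLC20A1, had 2.58, 2.39 and 2.47 FPKM in KO AraC, 1.69, 1.35 and 1.31 in KO untreated, 1.81, 1.897 and 2.05 in WT AraC and 1.91, 1.78 and 1.64 in WT untreated libraries. KO AraC libraries were above all others, and the AraC difference was 0.62 (SE 0.09, adjusted p = 0.00028) in KO and 0.09 (SE 0.09, adjusted p = 0.47) in WT cells, with 0.61 (SE 0.04, adjusted p = 4.3e-07) and 0.44 (SE 0.04, adjusted p = 3.0e-06) for SLC20A1. FLJ42351 reached 2 FPKM in AraC-treated libraries only, so the rule favoured a higher level with AraC. LINC00623 had 2.46, 2.39 and 2.44 FPKM in KO AraC, 1.52, 2.41 and 2.41 in KO untreated, 3.401, 3.34 and 3.69 in WT AraC and 1.58, 1.56 and 1.91 in WT untreated libraries. WT AraC libraries were above the other 9, with 0.18 (SE 0.13, adjusted p = 0.28) in KO and 0.87 (SE 0.13, adjusted p = 0.00021) in WT cells. AL390728.6 had 12.2, 11.5 and 13.1 FPKM in KO AraC, 7.06, 8.498 and 7.36 in KO untreated, 13.7, 12.3 and 8.56 in WT AraC and 11.8, 10.8 and 12.4 in WT untreated libraries, lowest in KO untreated libraries, with 0.65 (SE 0.14, adjusted p = 0.0028) in KO and -0.04 (SE 0.14, adjusted p = 0.83) in WT cells. AC008915.2 gave 0.09 (SE 0.17, adjusted p = 0.71) and 0.93 (SE 0.17, adjusted p = 0.00084), and shares 35.3% of its exon bases with COG7.

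Because many lincRNAs start beside a coding gene, the differences of 70 lincRNAs with a tested coding start within 5 kb were set beside those of the neighbour. In KO against WT cells with AraC, 16 of the 70 lincRNAs were called, the neighbour was called in the same direction in 8, in the opposite direction in 0, and not at all in 8. Without AraC 12 were called, with the neighbour called in the same direction in 7, opposite in 0 and not at all in 5. With AraC against untreated the pairs were more mixed. Of 23 lincRNAs called in KO cells the neighbour went the same way in 10, the opposite way in 6 and was not called in 7. Of 22 called in WT cells these were 9, 5 and 8. In the 85 pairs further than 5 kb apart they were 11, 8 and 7 of 26 in KO and 12, 7 and 13 of 32 in WT cells. For KO against WT those pairs gave 1, 2 and 13 of 16 with AraC and 5, 2 and 10 of 17 without. Of all genes, 15.4% were higher and 14.8% lower in KO against WT with AraC, and 14.9% and 12.6% without. For AraC these were 19.8% and 24.7% in KO and 24.1% and 25.6% in WT cells. Across the 70 pairs the Pearson correlation of the 2 log2 differences was 0.29 for KO against WT with AraC, 0.49 without AraC, 0.26 for AraC in KO and 0.15 in WT cells. For the 85 pairs with starts further than 5 kb apart it was -0.22, -0.02, 0.05 and 0.13. Spearman's rho, in the same order, was 0.28, 0.48, 0.34 and 0.23 for the 70 pairs and 0.02, 0.21, 0.05 and 0.15 for the 85, so the negative Pearson values did not hold by rank. These describe pairs measured in the same libraries, and no test of a difference between the comparisons was made.

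**Figure D5:**
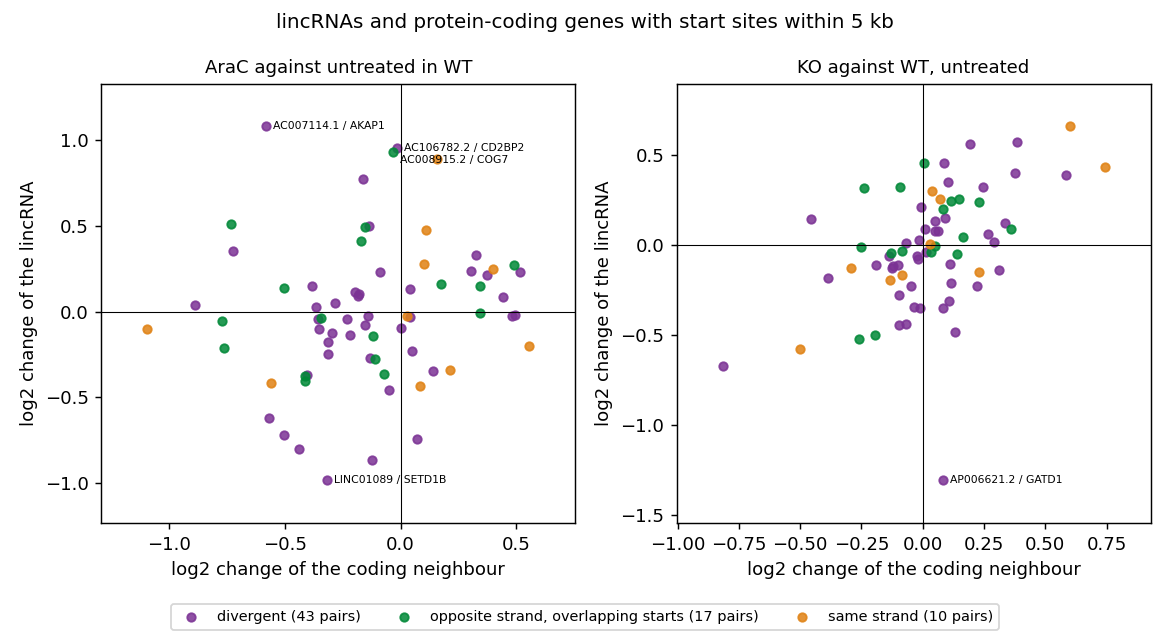
Log2 difference of a lincRNA (vertical axis) against that of the protein-coding gene with a start within 5 kb (horizontal axis), 70 pairs coloured by arrangement, for AraC against untreated in WT (left) and KO against WT untreated (right). AC007114.1 lies high on the left while AKAP1 lies below 0, and the pairs on the right run more along the diagonal, with correlations of 0.15 on the left and 0.49 on the right.

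Some pairs, chosen after their values were seen, show both patterns. LINC00528 and BID, a pro-apoptotic relative of BCL2, start 2552 bases apart and differed with AraC by -0.47 and -0.49 in KO and -0.72 and -0.50 in WT cells, all called lower. AC019069.1 and HK2, a hexokinase, overlap at their starts and differed by -0.39 and -0.63 in KO and -0.21 and -0.76 in WT cells, all called lower. In the other direction, C12orf77 was higher and LRMP lower, at 0.48 and -0.68 in KO and 0.51 and -0.73 in WT cells, all called. Between genotypes, AC144652.1 and INSIG1, a regulator of sterol synthesis, differed by 0.58 and 0.39 without AraC, both called higher in KO cells.

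LincRNAs also lie near each other: 24 of the 180 formed 16 pairs with starts within 100 kb. The AC025437.5 and AC025437.1 pair was the only one called in the same direction in both KO comparisons. AC005332.6, AC005332.7, AC005332.2 and AC005332.4 lie within 78823 bases on the plus strand of chromosome 17. With AraC in WT cells AC005332.6 was higher (0.62), AC005332.2 lower (-0.40), and AC005332.7 (-0.19) and AC005332.4 (-0.22) were not called. In KO against WT cells with AraC AC005332.4 was higher (0.68) and the others were not called, and without AraC AC005332.6 (0.42) and AC005332.4 (0.48) were both higher and the others not called. AC005332.4 reached 2 FPKM in KO libraries only, so the rule favoured that direction. With AraC in KO cells only AC005332.6 of the 4 was called, higher by 0.27. ERVH48-1 and AP001628.1, 89169 bases apart on chromosome 21, were also unlike each other, with ERVH48-1, favoured by the rule as above, higher with AraC in both genotypes and AP001628.1 called in neither, at 0.44 in KO and -0.05 in WT cells. Of the 180 lincRNAs, 106 were called in at least 1 of the 4 pairwise comparisons and 74 in none.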

How the data were processed

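RNA-seq libraries of SEM cells were analysed from 1 table in which the authors deposited FPKM values of 58735 genes (3 libraries in each of 4 groups). Reads were processed with fastp, HISAT2 2.0.5 and featureCounts 1.5.0-p3, per the submitters' processing notes. In every library 100% of the FPKM values were whole multiples of 1 read within 0.001, which gave the read numbers. The library size implied by the FPKM was not the number of assigned reads. It was smaller in all untreated libraries and KO AraC replicate 3, and larger in the other AraC libraries. For example, it was 15525401 against 16342979 reads in WT untreated replicate 1 and 17726479 against 16506662 in WT AraC replicate 2. On these reads limma-voom called 2743 genes higher and 3405 lower for AraC in KO, 3419 and 3589 for AraC in WT, 2375 and 2293 for KO against WT with AraC, and 2099 and 1780 without. Genes at 1 FPKM in at least 3 libraries (13300) were fitted as log2(FPKM + 0.5) with limma 3.58.1 (R 4.3.3, variance trend, 8 residual degrees of freedom, all 12 libraries in 1 fit), with 5 comparisons and Benjamini-Hochberg adjustment over all genes tested at 0.05. A fold change on this scale understates that of low genes. All adjusted p-values come from this limma fit or from its named alternative. The AraC comparisons share libraries with the KO comparisons. Tables were made with Python 3.11.15 and pandas 2.3.3. The fit was also run on simulated reads that had the same set spread for every gene. That run does not show how the fit performs at the spread of these libraries.

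The lincRNAs and gene lists were chosen with earlier results of these data known. Named were the 5 highest lincRNAs, the 5 most increased and 5 most decreased per comparison among those called without overlap of the groups, the 6 with the smallest interaction p, the members of 4 role lists and the 3 on each side of the FPKM threshold. Named after their values were seen were LINC00528, AC019069.1, C12orf77, AC144652.1, HCG11, AC125603.2, AP001628.1, the other AC005332 genes and neighbours further than 5 kb away. Alternatives were other pseudocounts, filters, scalings, models, subsets, a replicate block and leaving out each library. Some items are not reported here.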

Additional observations from a re-analysis of the deposited data

Results flagged for a closer look

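For AC138904.1 the AraC effect in KO cells minus that in WT cells was 0.43 on the log2 scale, since AraC differed from untreated by 0.41 in KO and by -0.02 in WT cells. For AC005332.6 it was -0.35, from 0.27 in KO and 0.62 in WT cells. Both were picked out because the difference between the effects in the 2 genotypes passed the limma interaction test, at an adjusted p of 0.041 and 0.049. The call of AC138904.1 was lost in 17 of 23 alternatives and that of AC005332.6 in 18 of 23. The cause was not tested.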

How the results depend on the processing

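Of 65 called values of named lincRNAs, 46 stayed called under every alternative run for them (24 for a pairwise value, 23 for an interaction), 19 were lost under at least 1, and 0 reversed, while 15 of 55 values not called were called under at least 1. For AraC in KO cells the number higher was 10 when only lincRNAs were fitted, and the number lower was 15 without the filter, 13 with TPM scaling, 11 with only lincRNAs and 14 with scaling by plain read totals. For AraC in WT cells the number higher was 38 with TPM scaling and 37 with plain totals, and the number lower 16 with TPM scaling, 22 with only lincRNAs and 22 with plain totals. With only lincRNAs KO against WT with AraC gave 15 higher and 7 lower, and without AraC 9 lower, and 8 were lower without AraC among lincRNAs with a mean of at least 2 FPKM. The positive interaction count was 0 without the filter, with TPM scaling, with plain totals and with only lincRNAs, and 2 without a variance trend. The negative count was 0 with a pseudocount of 1, without the filter, with quantile normalization, without a variance trend, with limma-voom on the recovered reads and with only lincRNAs, 3 with TPM scaling and 2 with plain totals. Leaving out 1 library gave 17 to 24 higher and 17 to 25 lower for AraC in KO cells, with 17 lower without KO untreated replicate 2, and 20 to 25 higher and 29 to 39 lower in WT cells. It gave 19 to 26 higher and 9 to 14 lower for KO against WT with AraC, with 9 lower without WT AraC replicate 3, and 19 to 24 higher and 10 to 16 lower without AraC, and 0 to 2 for each interaction count. The cause of these shifts was not tested. Same-numbered libraries of different groups correlated in their deviations at -0.05 to 0.12, and different-numbered ones at -0.10 to 0.11. These ranges gave no sign of pairing by number, but with 3 libraries a group they cannot show that there was none. With a replicate block the counts higher and lower were 22 and 27 for AraC in KO, 24 and 36 for AraC in WT, 24 and 15 for KO against WT with AraC, 21 and 12 without, and 0 and 0 for the interaction. The interaction had no value with only the 2 groups compared. Depth limits the 35 lincRNAs with a median of under 20 reads a library.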
